A study of Homo sapiens with 30 samples.

Results

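The core histone cluster genes encode the 4 proteins, H2A, H2B, H3 and H4, that form the nucleosome. They were taken here as the protein-coding genes whose GENCODE 29 symbol starts with HIST1H, HIST2H, HIST3H or HIST4H, without the linker histones (symbols starting HIST1H1), and with 10 or more reads on the gene's strand summed over all 30 libraries. Of 65 candidates 53 met the rule, out of 60554 gene identifiers counted: 13 H2A, 18 H2B, 10 H3 and 12 H4 genes. The members lie mostly in the large histone cluster of chromosome 6 (45 genes), with 7 on chromosome 1 and 1, HIST4H4, on chromosome 12. The 12 candidates under 10 reads were HIST2H2AA3, HIST2H2AA4, HIST1H2AA, HIST1H2AD, HIST2H3PS2, HIST2H3C, HIST2H3A, HIST3H3, HIST1H3D, HIST2H4A, HIST2H4B and HIST1H4G. Several of these, such as HIST2H4A and HIST2H4B, are copies of each other, and reads that fit several places were not counted for any gene.

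RNA was measured in 5 human cell lines derived from T-cell acute lymphoblastic leukaemia (T-ALL), named Loucy, MOLT-16, PEER, PER-117 and TALL-1. Every line had 3 libraries of cells kept in decitabine at 1 µM for 48 h and 3 of cells kept in the vehicle dimethyl sulfoxide (DMSO), which gives 10 groups. Decitabine is a cytidine analogue that is built into DNA and traps DNA methyltransferases. Each line stands for 1 leukaemia. Nothing in the labels tells if replicate libraries were grown apart, so p-values measure only the spread between these libraries, which may be technical. T-lineage markers were present in every group, with 12 to 14 of 14 markers at 1 CPM or more. Of 4 B-lineage, 4 myeloid, 4 erythroid and 4 stromal and epithelial markers at most 3 a list reached 1 CPM in a group, and their summed levels were at most 64.4, 26.9, 5.07 and 6.48 CPM in any library.

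Replication-dependent histone genes are transcribed mainly in S phase. Their transcripts normally end just after a conserved stem-loop and carry no poly(A) tail, and the stem-loop binding protein SLBP takes the place of the tail in processing and translation. Some of the same genes also make longer, polyadenylated transcripts, which are known mainly from cells that leave the cycle. The libraries were made with a kit that primes on poly(A) and reads the 3′ end (QuantSeq 3′ FWD), so the values here are of RNA that the primer could capture, not of total histone RNA. In bulk RNA fewer cells of a kind and less RNA per cell cannot be told apart.

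The stem-loop sequences are shown because they mark where the tailless transcript would end. A match to the histone stem-loop lay after the stop codon in the annotated transcripts of 25 of 53 members. The coding transcripts of 26 members end at the stop codon in GENCODE 29 and could not hold such a match. Counted by transcript and at any position, a match lay in 113 of 206694 (0.0547%) of all GENCODE 29 transcripts, a different unit from the count of members. The stems are in capitals below and the loops in lower case, on the transcript's strand. Form A was found in 13 members, HIST3H2A, HIST1H2AC, HIST2H2BE and HIST1H2BG among them, form B in 5 H4 members, HIST4H4, HIST1H4B, HIST1H4E, HIST1H4H and HIST1H4J, and form C in 4 members, HIST1H2BC, HIST1H2BD, HIST1H2BF and HIST1H3G.
Form A: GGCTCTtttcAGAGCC
Form B: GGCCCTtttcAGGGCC
Form C: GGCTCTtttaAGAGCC
HIST1H4C has no such match in its annotated transcript of 435 bases, which ends 51 bases after the stop codon. The last 30 bases of that transcript are shown because they are rich in A, and the part of this stretch in the gene's level was not tested. They hold 21 A, in capitals here, and lie at chr6:26104281-26104310 on the plus strand.
HIST1H4C end: tgAgAActtcAAAAAAcAAAAAcAAAAAAA
A stretch of 15 bases with 12 or more A occurs in 19.6% of all GENCODE 29 transcripts, and the highest count in HIST1H4C was 13. HIST1H4C was not alone among the members. HIST1H2BG reached 15, and the last 30 bases of its annotated transcript are all A. HIST1H2BE, HIST1H2BN and HIST1H4I reached 12. The part of these stretches in the levels was not tested either.

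Promoters are shown for 5 members that changed with the drug in at least 1 line, as the 150 bases before the start in RefSeq's GRCh38.p14 table, 5′ to 3′ on the gene's strand. Of the 53 members 48 were matched in that table, all but HIST1H2AH, HIST1H3I, HIST1H3J, HIST1H4A and HIST1H4C. Capitals mark 3 motifs on either strand. They are the octamer ATTTGCAT, bound by the OCT1 protein at H2B genes, CCAAT, bound by NF-Y, and TATAAA, and overlapping TATAAA matches on the 2 strands are merged. HIST1H2AG and HIST1H2BJ are a divergent pair whose annotated starts lie 292 bases apart on opposite strands. Their stretches lie at chr6:27132893-27133042 on the plus strand for HIST1H2AG and at chr6:27132796-27132945 on the minus strand for HIST1H2BJ. The others lie at chr6:26272781-26272930 on the plus strand for HIST1H2BI, chr6:26224028-26224177 on the plus strand for HIST1H3E and chr6:26027284-26027433 on the minus strand for HIST1H4B.
HIST1H2AG: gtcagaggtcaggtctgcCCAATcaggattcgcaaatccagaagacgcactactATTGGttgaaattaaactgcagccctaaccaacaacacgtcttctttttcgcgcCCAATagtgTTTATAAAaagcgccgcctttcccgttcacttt
HIST1H2BJ: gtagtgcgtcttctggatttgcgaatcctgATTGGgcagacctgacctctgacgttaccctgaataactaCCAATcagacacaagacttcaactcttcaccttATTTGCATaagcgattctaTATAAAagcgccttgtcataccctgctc
HIST1H2BI: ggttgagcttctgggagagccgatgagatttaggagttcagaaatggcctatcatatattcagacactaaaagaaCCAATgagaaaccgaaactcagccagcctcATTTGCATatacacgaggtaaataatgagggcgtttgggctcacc
HIST1H3E: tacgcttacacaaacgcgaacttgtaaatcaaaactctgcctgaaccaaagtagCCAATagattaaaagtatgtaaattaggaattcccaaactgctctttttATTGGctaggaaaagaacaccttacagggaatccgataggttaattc
HIST1H4B: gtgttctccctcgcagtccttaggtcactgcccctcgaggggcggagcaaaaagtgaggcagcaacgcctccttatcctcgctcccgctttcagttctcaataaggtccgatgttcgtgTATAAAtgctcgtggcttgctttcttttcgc
The octamer was found in the 300-base promoter windows of 9 of 12 H2A and 14 of 18 H2B members and of none of the 8 H3 and 10 H4 members matched, against 1.82% of all 27305 promoters in the table. These windows reach further upstream than the 150 bases printed and can overlap in a divergent pair, so 1 octamer can count for both genes. The HIST1H2AG window takes in the octamer printed for HIST1H2BJ, while the HIST1H2AG stretch printed holds none. CCAAT was found in all H2A, H2B and H3 members matched and in 3 of 10 H4 members, against 35.6% of all promoters. TATAAA was found in 33 of 48 members, against 12.1%. A match describes the letters only and is no evidence of a bound factor.

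Levels are given in CPM, the reads of a gene scaled to the library's size with TMM factors. A 3′ kit makes about 1 fragment per RNA, so CPM was not divided by length. One gene held most of the reads. HIST1H4C (ENSG00000197061.4, chr6:26103876-26104310) averaged 628 CPM over the 10 groups, while the next highest, HIST1H2BD, averaged 12.3 CPM. HIST1H4C made up 42.0% to 96.1% of the members' summed level in a library. The 3 highest H2A members were HIST1H2AC, HIST1H2AG and HIST1H2AE, at 11.6, 11.4 and 7.74 CPM, and the 3 highest H2B members HIST1H2BD, HIST2H2BE and HIST1H2BG, at 12.3, 10.8 and 8.91 CPM. HIST1H3H, HIST1H3C and HIST1H3E led the H3 members at 5.12, 3.51 and 3.4 CPM. HIST1H4E and HIST1H4H followed HIST1H4C among the H4 members at 6.03 and 5.82 CPM. The testis histone HIST1H2BA had 16 reads in all libraries together, 9 of them in Loucy decitabine and none in Loucy DMSO (at least 3.22-fold higher), and HIST4H4 had 224.

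The annotated 3′ end went along with the level. The transcripts of 26 members end at the stop codon in GENCODE 29, and these had a median of 0.796 CPM. Those of 21 members run on, here meaning 100 bases or more past the stem-loop or, without one, past the stop codon, with a median of 5.60 CPM. The other 6 members have short ends past the stop codon, HIST1H4C among them. A read that falls beyond an annotated end is not counted for the gene, so a level near 0 does not show that the gene is silent.

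Of the 53 members 40 passed the filter on low counts and were tested, 10 H2A, 13 H2B, 8 H3 and 9 H4. Among the DMSO groups 29 of the 40 differed between lines at an adjusted p under 0.05, against 91.6% of all genes tested. HIST1H4C stood highest in Loucy DMSO, at 1859 ± 349 CPM (mean ± SD, n = 3), and lowest in PEER DMSO, at 315 ± 140 CPM. HIST2H2BE stood at 34.6 ± 8.54 CPM in TALL-1 DMSO and at 3.41 to 6.93 CPM in the DMSO groups of the other lines. HIST3H2A averaged 24.5 CPM in PER-117 DMSO and 0.977 to 6.90 CPM in the others. HIST1H2AC averaged 18.9 ± 2.96 CPM in PEER DMSO and 2.91 to 5.92 CPM in the others.

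With decitabine 32 of the 40 members tested rose and none fell in TALL-1, against 6.74% of all genes higher and 6.12% lower. The counts were lower in the other lines. PEER had 4 higher and none lower, against 3.54% and 0.961% of all genes. In MOLT-16 none was higher and 1 was lower, against 2.19% and 1.01%. Loucy had 5 higher and 8 lower, against 10.6% and 4.13%, and PER-117 had 7 higher and 1 lower, against 8.67% and 3.16%. The median log2 change of the members tested was 0.36 in PEER, 2.70 in TALL-1, 0.03 in MOLT-16, -0.93 in Loucy and 0.27 in PER-117, while the median of all genes tested lay between -0.02 and 0.05. The test of the difference among lines called 32 of the 40, against 13.6% of all genes, and 23 of the 30 members that passed the filter without the TALL-1 decitabine libraries. Over all 53 members the libraries of both groups did not overlap for 8 higher and 4 lower in PEER (10.1% and 8.05% of the 23008 genes with 10 or more reads), 1 and 4 in MOLT-16 (6.93% and 5.47%), 9 and 18 in Loucy (21.8% and 11.1%) and 11 and 2 in PER-117 (18.1% and 10.4%).

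**Figure D1:**
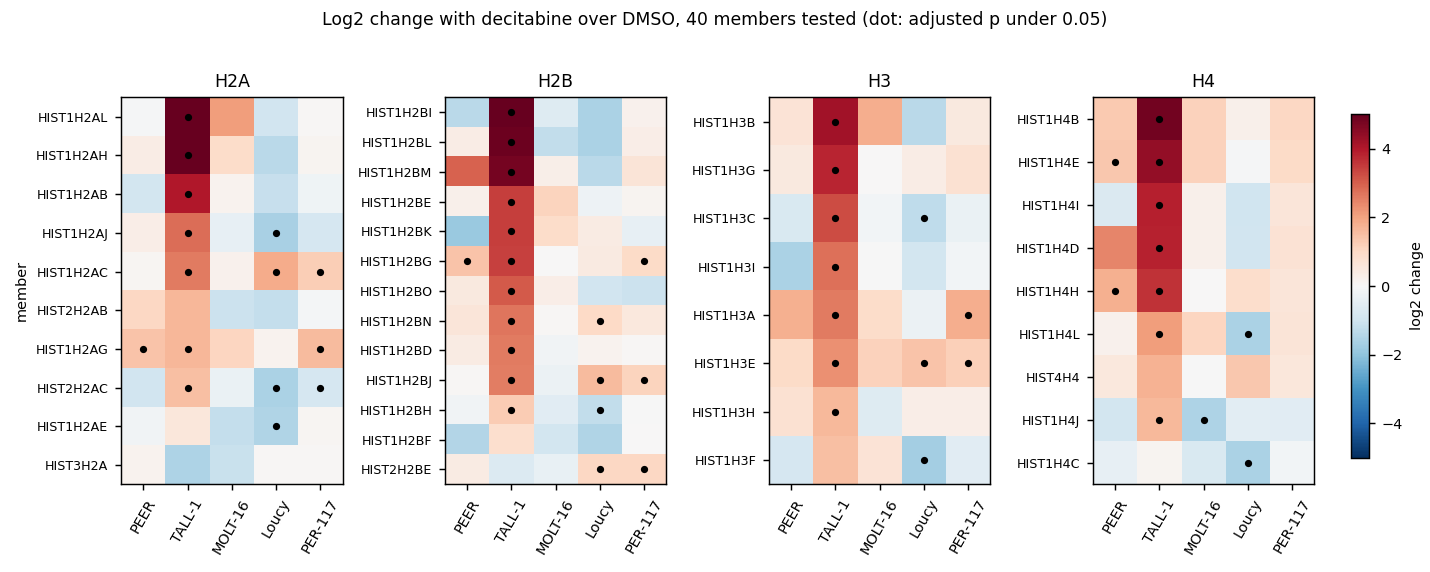
Log2 change of each of the 40 members tested (rows, by class) with decitabine over DMSO in each line (columns), with red for higher and blue for lower in decitabine and a dot at an adjusted p under 0.05; colours are capped at 5. TALL-1 has 32 dots, all red, and Loucy has dots of both colours.

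In TALL-1 the rise covered all 4 classes, with 7 of 10 H2A, 11 of 13 H2B, 7 of 8 H3 and 7 of 9 H4 members called higher. In each class the members tested include some that passed the filter only with the TALL-1 decitabine libraries, named below. The log2 changes ran from -1.55 to 5.95. The H3 member HIST1H3C (ENSG00000278272.1, chr6:26045411-26045821) had 10.8, 20.2 and 18.0 CPM in TALL-1 decitabine libraries, against 1.5, 1.72 and 1.79 CPM in TALL-1 DMSO libraries. Every decitabine library was above every DMSO library, and the log2 change was 3.28 ± 0.34 (SE, adjusted p = 1.7e-07). The H2B member HIST1H2BG had 37.5, 49.4 and 45.9 CPM with decitabine, against 3.43, 5.17 and 3.76 CPM with DMSO, a log2 change of 3.44 ± 0.31 (adjusted p = 4.12e-08), the smallest adjusted p of any member in TALL-1. HIST1H4E had 20.5, 38.5 and 25.2 CPM with decitabine, against 1.72, 0.738 and 1.43 CPM with DMSO, and HIST1H4B, whose promoter is printed above, had 20.9, 29 and 27.9 CPM against 0.429, 1.23 and 1.07 CPM. Their log2 changes were 4.41 ± 0.42 (adjusted p = 8.22e-08) and 4.81 ± 0.49 (adjusted p = 1.7e-07). Both are H4 genes that were near 1 CPM without the drug, and their groups did not overlap.

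The highest fitted changes in TALL-1 came from members with 1 to 3 reads over the 3 DMSO libraries, where the fitted value depends on the fit's prior count. For these the ratio of scaled reads with its 95% counting interval is the value to read. HIST1H2BI had 67 reads in TALL-1 decitabine and 1 in TALL-1 DMSO, a ratio of 70.3 (12.2 to 2816). HIST1H2AL had 47 reads against 1, a ratio of 49.3 (8.42 to 1988), and HIST1H2AH 114 against 3, a ratio of 39.9 (13.3 to 196). HIST1H2BL had 61 against 2, at 32.0 (8.48 to 270.1), and HIST1H2BM 64 against 2, at 33.6 (8.92 to 283). HIST1H2AK and HIST1H3J, too low to be tested, had 28 and 24 reads in TALL-1 decitabine and none in TALL-1 DMSO, so they were at least 9.79-fold and 8.39-fold higher against a floor of 3 reads over the group. HIST1H2BB and HIST1H2AM, with 7 and 6 reads against none, were at least 2.45-fold and 2.10-fold higher, and HIST1H4A had 57 reads against 3, a ratio of 19.9 (6.48 to 99.5). HIST1H3J and HIST1H2AM overlap on 1 strand, which makes their reads less certain. HIST1H2AL overlaps HIST1H2BN on the same strand and HIST1H2AK overlaps HIST1H2BN on the opposite strand, so the reads of HIST1H2AL and HIST1H2AK are less certain too. The other members not tested were HIST1H2AI, HIST2H2BF, HIST3H2BB, HIST1H2BA, HIST1H2BC, HIST2H3D, HIST1H4F and HIST1H4K.

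A filter on counts keeps a member that is high in 1 group alone. Of the 40 members tested, 10 no longer passed when the TALL-1 decitabine libraries were left out, so their passing was tied to a high value there: HIST1H3B, HIST1H4D, HIST1H2BI, HIST1H2AH, HIST1H2BL, HIST1H2BM, HIST1H2AL, HIST1H3I, HIST1H2BO and HIST4H4. HIST1H2BM and HIST4H4 also failed when either group of Loucy or PER-117 was left out. Of the 30 that passed without those libraries 23 were called higher and none lower in TALL-1, with a median log2 change of 2.57. Of all 53 members, tested or not, 40 had every TALL-1 decitabine library above every TALL-1 DMSO library, and 1, HIST2H2BE, every decitabine library below, against 11.6% and 9.87% of those 23008 genes.

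**Figure D2:**
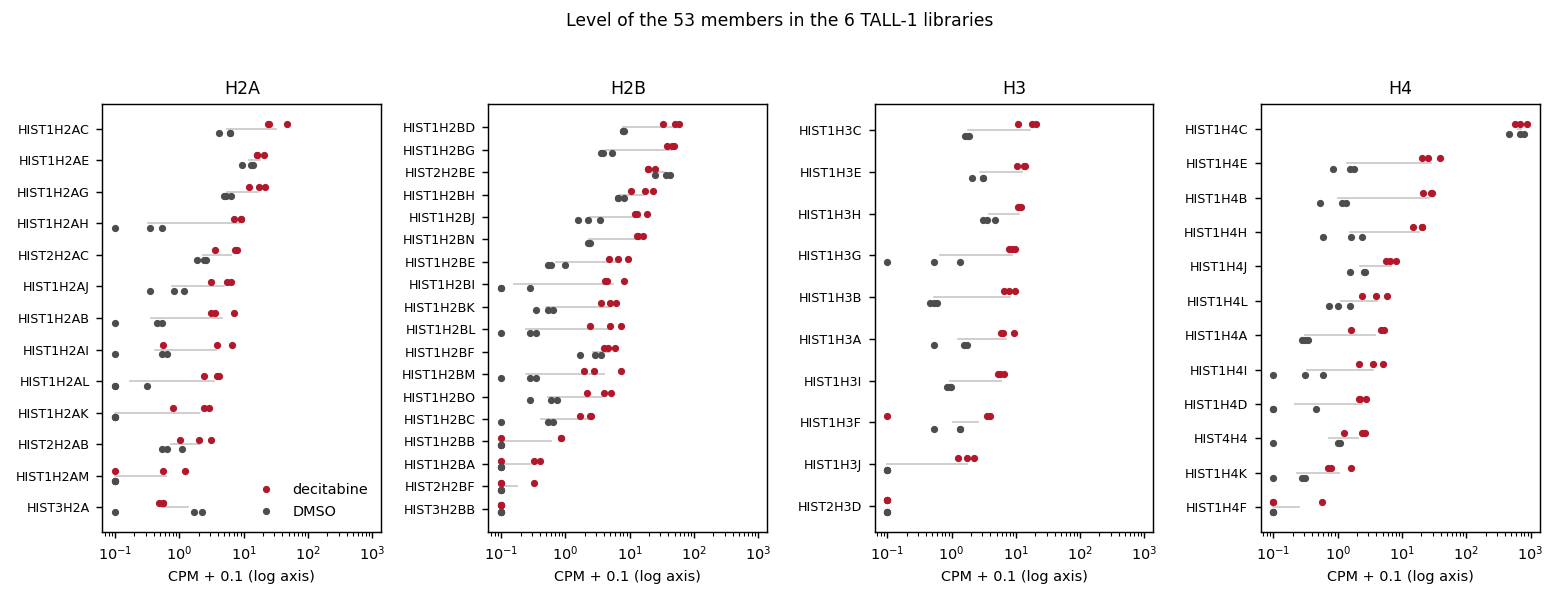
CPM + 0.1 on a log axis for the 53 members (rows, by class) in the 3 decitabine (upper points, red) and 3 DMSO libraries (lower points, grey) of TALL-1, with a line between the group means. Most members lie to the right with decitabine, while HIST1H4C overlaps and HIST2H2BE and HIST3H2A lie to the left on average.

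The other 8 members tested were not called in TALL-1. HIST1H4C had 673, 879 and 576 CPM with decitabine, against 690, 777 and 454 CPM with DMSO, and these groups overlapped (log2 change 0.15 ± 0.35, adjusted p = 0.843). HIST2H2BE, on chromosome 1, had 19.3, 24.7 and 19.5 CPM against 37.1, 41.6 and 25.1 CPM, a log2 change of -0.69 ± 0.27 (adjusted p = 0.0927). Without the TALL-1, MOLT-16 and PEER libraries described next it was called lower, with a log2 change of -0.88 and an adjusted p of 0.0208. HIST3H2A, also on chromosome 1, averaged 0.430 CPM with decitabine and 1.25 CPM with DMSO (adjusted p = 0.218). HIST1H2AE averaged 17.7 ± 2.58 CPM and 12.2 ± 2.54 CPM (adjusted p = 0.284). The rest were HIST1H2BF, HIST1H3F, HIST2H2AB and HIST4H4, with log2 changes of 0.85 to 1.73.

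TALL-1 DMSO replicate 3, MOLT-16 DMSO replicate 3 and PEER DMSO replicate 2 carried transcripts restricted to other lines. At their highest those genes stood there at 6.1% to 25% of their level in the line they mark, while no further DMSO library, of 12, exceeded 1.25%. The highest were PEER genes in TALL-1 DMSO replicate 3 (17.3%) and MOLT-16 DMSO replicate 3 (24.95%). PEER DMSO replicate 2 carried genes of both TALL-1 (6.01%) and MOLT-16 (6.10%). The genes were picked as under 1 CPM in every decitabine library of the other lines, so decitabine libraries could not be checked this way. Only 4 genes marked TALL-1. Without the 3 libraries 37 members were called higher and 1 lower in TALL-1, where the background became 7.46% and 6.49%. The 5 more that rose, HIST1H4A, HIST1H2BC, HIST1H2AI, HIST1H2AK and HIST1H3J, did not pass the filter with all libraries, and they were also called higher there with all libraries and no filter (adjusted p 4.19e-05 to 0.0215). The fitted log2 change moved by over 1.5-fold for 6 members with few DMSO reads. It was 8.40 for HIST1H2BI, 7.17 for HIST1H4D, 5.18 for HIST1H3G, 4.71 for HIST1H2AL, 4.54 for HIST1H2AH and 3.23 for HIST1H4I, against 5.95, 3.86, 3.8, 5.31, 5.20 and 3.90 with all libraries. Leaving out TALL-1 DMSO replicate 3 alone gave nearly the same values, 8.37, 7.14, 5.17, 4.71, 4.54 and 3.23. Without DMSO replicate 1 HIST1H2AH had 6.12 and HIST1H2AL 7.77, without DMSO replicate 2 HIST1H4I had 4.89, and without decitabine replicate 2 HIST1H2BM had 3.83. Stromal and epithelial markers summed to 3.68 to 4.79 CPM in TALL-1 decitabine libraries and 0.246 to 0.537 CPM in TALL-1 DMSO libraries, and their part in these changes was not tested. Leaving out any 1 library gave 30 to 37 members called higher in TALL-1. HIST1H4L lost its call without decitabine replicate 2, DMSO replicate 1 or DMSO replicate 3 (adjusted p 0.0611 to 0.125), HIST1H4J without DMSO replicate 3 (0.0537) and HIST2H2AC without decitabine replicate 2 (0.0872).

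Summed over members, the H2A class reached 102 ± 30.5 CPM in TALL-1 decitabine and 28.7 ± 1.78 CPM in TALL-1 DMSO (mean ± SD, n = 3), a ratio of 3.56. The H2B class reached 195 ± 40.8 CPM against 62.8 ± 7.69 CPM (ratio 3.11) and the H3 class 73.7 ± 10.2 CPM against 12 ± 0.506 CPM (ratio 6.16). The H4 class stood at 805 ± 166 CPM against 649 ± 167 CPM (ratio 1.24), with overlapping groups. Without HIST1H4C the other 11 H4 members summed to 95.8 ± 16.6 CPM in TALL-1 decitabine and 8.13 ± 0.631 CPM in TALL-1 DMSO, a ratio of 11.8. In the other lines the class ratios lay between 0.340, for H4 in Loucy, and 1.44, for H3 in PEER. These sums carry no test.

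**Figure D3:**
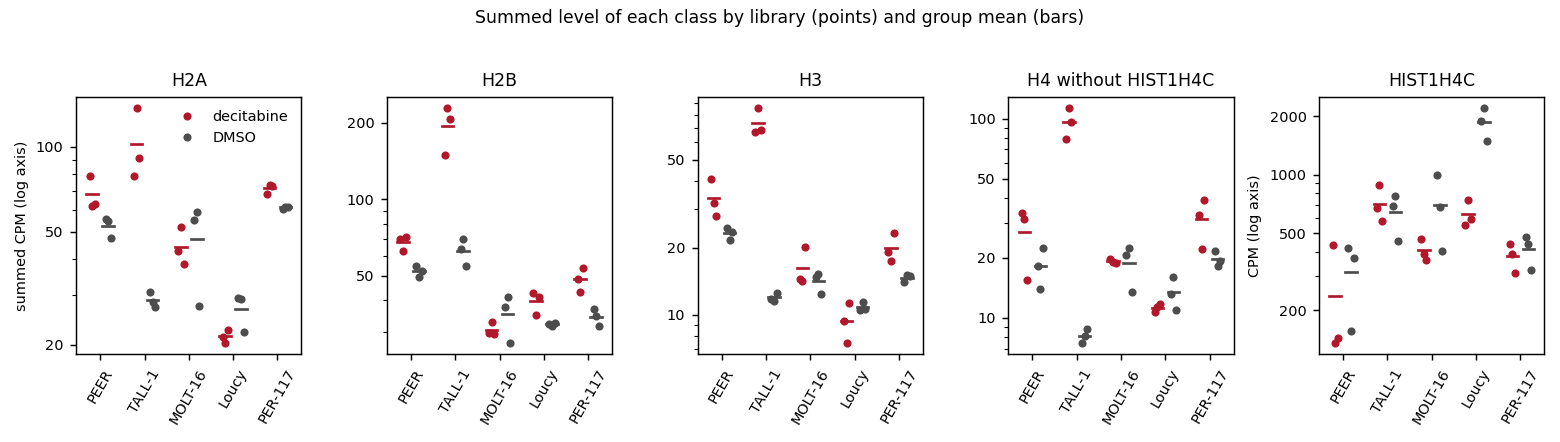
Summed CPM on a log axis of the H2A, H2B and H3 members, of the H4 members without HIST1H4C, and of HIST1H4C alone, in each library (points) with the group mean (bar), decitabine (red) left of DMSO (grey) in each line; the 5 panels have different axes. H4 without HIST1H4C shows the widest gap, in TALL-1 (95.8 against 8.13 CPM), and HIST1H4C separates the groups in Loucy alone.

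In Loucy members moved in both directions. Of those tested 20% fell, against 4.13% of all genes, while the 12.5% that rose were near the 10.6% of all genes. The abundant HIST1H4C fell, with 548, 740 and 589 CPM in Loucy decitabine libraries, against 1881, 2196 and 1499 CPM in Loucy DMSO libraries. Every decitabine library lay below every DMSO library, and the log2 change was -1.57 ± 0.36 (adjusted p = 0.00242). HIST2H2AC fell most clearly among the H2A members, with 2.50, 2.29 and 2.42 CPM against 8.82, 7.18 and 5.60 CPM (log2 change -1.58 ± 0.29, adjusted p = 0.000285). HIST1H2AE, HIST1H2AJ, HIST1H2BH, HIST1H3C, HIST1H3F and HIST1H4L were the other members that fell, with log2 changes of -1.71 to -1.23. HIST1H3F is the least certain of these, since its adjusted p of 0.0467 became 0.0588 to 0.172 when any 1 Loucy library was left out. Its call was also lost without 1 of some libraries of other lines (0.0510 to 0.0545). HIST1H2AJ lost its call without decitabine replicate 1 or 3 or DMSO replicate 2 (0.0768 to 0.0991) and HIST1H4L without decitabine replicate 1 (0.0805).

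The 5 members that rose in Loucy were HIST1H2AC, HIST1H2BJ, HIST1H3E, HIST2H2BE and HIST1H2BN. HIST1H2AC (ENSG00000180573.9, chr6:26124145-26139116) had 10.1, 8.92 and 13.0 CPM with decitabine, against 3.22, 3.04 and 2.46 CPM with DMSO. The groups did not overlap, and the log2 change was 1.86 ± 0.24 (adjusted p = 2.83e-06). HIST1H2BJ averaged 5.56 ± 1.00 CPM with decitabine and 1.82 ± 0.450 CPM with DMSO (log2 change 1.60 ± 0.29, adjusted p = 0.000225), and HIST1H3E 2.89 ± 0.683 CPM and 1.07 ± 0.327 CPM (1.41 ± 0.33, adjusted p = 0.00353). HIST2H2BE had 9.46, 6.21 and 8.78 CPM against 4.15, 3.85 and 3.89 CPM (1.03 ± 0.28, adjusted p = 0.0113), and HIST1H2BN a log2 change of 1.00 ± 0.26 (adjusted p = 0.00836). Without decitabine replicate 1 both lost their call, at adjusted p of 0.0618 for HIST2H2BE and 0.0591 for HIST1H2BN. HIST1H2BN overlaps HIST1H2AL on its own strand and HIST1H2AK on the other, so its reads are less certain.

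Myeloid markers summed to 25.3 to 26.9 CPM in Loucy decitabine libraries and 4.47 to 6.95 CPM in Loucy DMSO libraries, and their part in these changes was not tested. Without the 3 libraries that carry transcripts of another line 6 members rose and 10 fell in Loucy, against 14.5% and 8.0% of all genes. The test then also called HIST1H4H higher and HIST1H2BF and HIST1H2AH lower.

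In Loucy the direction went along with the annotated 3′ end. All 5 members that rose have transcripts that run on in that sense, where 5 of 18 members tested rose and 1, HIST1H2BH, fell, with a median log2 change of 0.36. Of the 17 members tested that end at the stop codon none rose and 5 fell, with a median of -1.26. Of the 5 with other short ends 2 fell, HIST1H4C and HIST1H2AE. The same split in PER-117 gave 6 higher and none lower of the 18, and 1 higher and 1 lower of the 17. In PEER it gave 4 higher of the 18 and none of the 17. In TALL-1 both kinds rose, 14 of 18 and 15 of 17, with median log2 changes of 2.57 and 3.28. Of the 17 members that end at the stop codon 8 passed the filter only with the TALL-1 decitabine libraries. Among the members that passed without them 14 of 17 that run on and 7 of 9 that end at the stop codon rose in TALL-1, with medians of 2.58 and 2.59. In MOLT-16 none of either kind was called, and the medians were 0.01 for those that run on and 0.29 for those that end at the stop codon. The shares of all genes higher and lower in each line are given above, and the split was not tested for a difference.

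**Figure D4:**
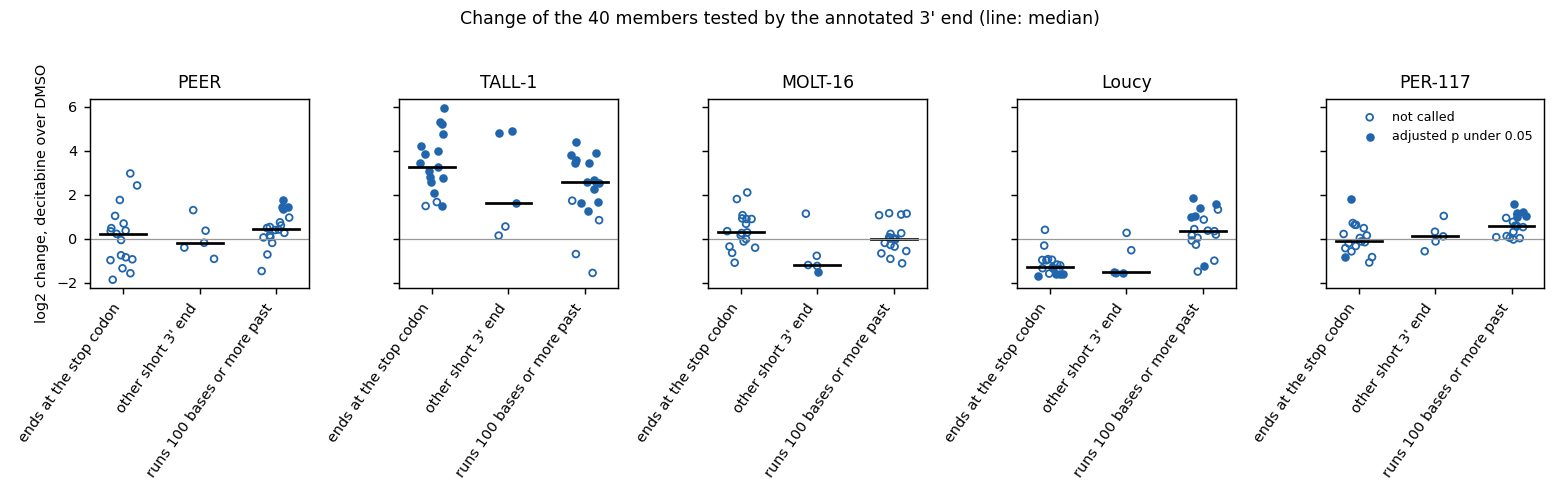
Log2 change with decitabine over DMSO of the 40 members tested in each line, by the annotated 3′ end of the transcript, with filled points at an adjusted p under 0.05 and the median as a line. In Loucy the medians are -1.26 for members ending at the stop codon and 0.36 for those that run on; in TALL-1 they are 3.28 and 2.57, or 2.59 and 2.58 over members that passed the filter without the TALL-1 decitabine libraries.

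Some members are known from cells that are not dividing for making polyadenylated RNA. Of the 7 on that list HIST1H2AC, HIST1H2BD, HIST1H2BJ, HIST1H2BK and HIST2H2BE were tested. The list had 3 higher in Loucy, 3 in PER-117, 4 in TALL-1 and none in PEER or MOLT-16, and no member was lower in any line. Of all genes 10.6% were higher in Loucy, 8.67% in PER-117, 6.74% in TALL-1, 3.54% in PEER and 2.19% in MOLT-16. In Loucy and PER-117 the 3 were HIST1H2AC, HIST1H2BJ and HIST2H2BE.

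In PER-117 HIST1H4C had 439, 392 and 311 CPM with decitabine, against 478, 440 and 320 CPM with DMSO, with overlapping groups (-0.12 ± 0.35, adjusted p = 0.911). The H3 member HIST1H3A rose most, with 3.85, 2.27 and 6.83 CPM in PER-117 decitabine libraries, against 1.34, 1.15 and 1.19 CPM in PER-117 DMSO libraries (log2 change 1.80 ± 0.52, adjusted p = 0.0214). HIST1H2AG had 14.4, 12.9 and 18.6 CPM against 6.15, 5.11 and 4.10 CPM (1.58 ± 0.36, adjusted p = 0.00343), and HIST1H2AC 9.32, 8.52 and 10.6 CPM against 3.13, 3.55 and 5.50 CPM (1.22 ± 0.25, adjusted p = 0.00123). The groups of all 3 genes were apart. HIST1H3E, HIST1H2BJ, HIST2H2BE and HIST1H2BG also rose, with log2 changes of 0.97 to 1.17, and HIST2H2AC fell by 0.84. With the replicate number as a block HIST1H3E had an adjusted p of 0.0518, against 0.0382 without it, while HIST1H4B (0.0403) and HIST1H4E (0.0393) were called higher. Without the 3 libraries that carry transcripts of another line 9 members rose and 1 fell, against 11.9% and 5.60% of all genes. Erythroid markers summed to 2.18 to 5.07 CPM in PER-117 decitabine libraries and 0 to 0.209 CPM in PER-117 DMSO libraries, and their part in these changes was not tested. The calls of HIST1H2AG and HIST1H2AC alone held without any 1 PER-117 library, and the other 6 lost theirs without at least 1, with adjusted p up to 0.223. For HIST2H2AC this was any of the 6 libraries, for HIST2H2BE DMSO replicate 2, for HIST1H2BJ decitabine replicate 1 or DMSO replicate 2 or 3, for HIST1H2BG decitabine replicate 1 or 3 or DMSO replicate 1 or 3, for HIST1H3A decitabine replicate 3 or any DMSO replicate, and for HIST1H3E decitabine replicate 1 or 2 or DMSO replicate 1 or 3. HIST2H2AC also lost its call without 1 of some Loucy libraries (0.0541 to 0.0612).

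In PEER the 4 members that rose were HIST1H4H, HIST1H2AG, HIST1H2BG and HIST1H4E. HIST1H4H had 9.89, 9.85 and 7.31 CPM in PEER decitabine libraries, against 3.31, 0.382 and 4.34 CPM in PEER DMSO libraries, which did not overlap (log2 change 1.77 ± 0.38, adjusted p = 0.00536). With PEER fitted alone the adjusted p was 0.132. The lowest value was that of DMSO replicate 2, the PEER library with transcripts of other lines. HIST1H2BG had 13.4, 16.3 and 12.7 CPM against 5.98, 5.34 and 4.34 CPM (1.42 ± 0.30, adjusted p = 0.00482). HIST1H2AG had 33.9, 27.0 and 19.7 CPM against 11.8, 8.97 and 9.30 CPM (1.44 ± 0.36, adjusted p = 0.0178), and its call was lost without decitabine replicate 1, DMSO replicate 2 or DMSO replicate 3 (0.0577 to 0.116). HIST1H4E, with overlapping groups and an adjusted p of 0.0491, lost its call without any 1 of 5 PEER libraries, all but decitabine replicate 3 (0.0854 to 0.370). The call of HIST1H4E was also lost without 1 of many libraries of other lines (0.0516 to 0.0575). Myeloid markers summed to 5.26 to 8.26 CPM in PEER decitabine libraries and 0 to 0.382 CPM in PEER DMSO libraries, and their part in these changes was not tested. HIST1H4C was not called in PEER (432, 136 and 144 CPM with decitabine, against 418, 156 and 370 CPM with DMSO, adjusted p = 0.604).

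MOLT-16 held the library with the fewest reads. There HIST1H4J had 1.76, 3.91 and 2.37 CPM with decitabine, against 9.71, 5.96 and 5.76 CPM with DMSO (-1.53 ± 0.43, adjusted p = 0.0447), and lost its call without decitabine replicate 1 or 3 or DMSO replicate 1 or 2 (0.0520 to 0.270). Its adjusted p was 0.294 with MOLT-16 fitted alone, 0.0651 with the replicate number as a block and 0.0533 with library totals in place of TMM factors. The call was also lost when any 1 of some libraries of other lines was left out (0.0505 to 0.0534). These were PEER decitabine replicate 2, TALL-1 decitabine replicates 1 and 3 and PER-117 decitabine replicate 2. Without the 3 libraries that carry transcripts of another line 3 members fell in MOLT-16, against 7.93% of all genes, HIST1H4C (log2 change -1.07, adjusted p = 0.00915) and HIST1H2AE (-1.50, adjusted p = 0.00321) besides HIST1H4J, and none rose, against 9.78%. With all libraries HIST1H4C had 468, 390 and 363 CPM with decitabine, against 999, 680 and 405 CPM with DMSO (-0.77 ± 0.35, adjusted p = 0.224). In PEER the same fit called 5 members higher and none lower, against 4.70% and 0.896% of all genes, with HIST1H3E added (1.32, adjusted p = 0.0173).

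No member was called in all lines. HIST1H2AC, HIST1H2BJ and HIST1H3E rose in TALL-1, Loucy and PER-117, and HIST1H2AG and HIST1H2BG in PEER, TALL-1 and PER-117. No member fell in 3 or more lines. With the lines as replicates, on counts summed over each group, none of the 40 members tested there was called in edgeR, against 0.606% of all genes higher and 0.222% lower, and 11 had an unadjusted p under 0.05, all of them higher. These 40 share 35 members with the 40 above. HIST1H2AI, HIST1H2BC, HIST1H3J, HIST1H4F and HIST1H4K were tested in place of HIST1H2AL, HIST1H2BI, HIST1H2BL, HIST1H2BM and HIST1H2BO. The lowest adjusted p was 0.0565, for HIST1H3E (log2 change 1.43), followed by 0.0596 for HIST1H2AG (1.22).

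Without the filter on low counts 10 members were called higher and 1, HIST1H4C, lower in that fit, against 3.73% and 1.36% of all genes. DESeq2 was not run on the summed counts.

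The response differed most between lines for HIST1H3C, with an adjusted p of 2.43e-06 for the difference. HIST1H3C had log2 changes of -0.75 in PEER, 3.28 in TALL-1, -0.12 in MOLT-16, -1.26 in Loucy and -0.33 in PER-117, of which those in TALL-1 and Loucy were called. HIST1H2AC, HIST1H2AH, HIST1H2BG and HIST1H4E followed, of which HIST1H2AH passed the filter only with the TALL-1 decitabine libraries. For HIST1H2AG and HIST1H3E the difference among lines was not called (adjusted p = 0.267 and 0.263), nor for HIST1H4C (0.0870).

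Divergent pairs of H2A and H2B genes share a short stretch between their starts, 219 to 331 bases in 9 pairs of members. Both members of 5 pairs were tested. The 4 of these with the highest summed level did not always move together. For the pair HIST1H2BG and HIST1H2AE the log2 changes in TALL-1 were 3.44 and 0.56 and in Loucy 0.44 and -1.50, of which the first and the last were called. For HIST2H2BE and HIST2H2AC they were -0.69 and 1.5 in TALL-1, where HIST2H2AC was called, and 1.03 and -1.58 in Loucy and 1.02 and -0.84 in PER-117, where both were called, in opposite directions. For HIST1H2BJ and HIST1H2AG, whose promoters are printed above, they were 2.56 and 1.65 in TALL-1 and 1.13 and 1.58 in PER-117, all called, and 1.60 and 0.20 in Loucy, where only HIST1H2BJ was called. For HIST1H2AJ and HIST1H2BM they were 2.80 and 4.77 in TALL-1, both called, and -1.61 and -1.33 in Loucy, where only HIST1H2AJ was called. HIST1H2BM passed the filter only with the TALL-1 decitabine libraries and had few DMSO reads in TALL-1, so its fitted value there is uncertain. The difference within a pair was not tested.

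Genes of other lists also changed in TALL-1, in both directions. There 6.74% of all genes were higher and 6.12% lower. All 25 S-phase replication genes tested fell there, with a median log2 change of -1.21, among them E2F1, a transcription factor of S-phase entry (43.2 ± 7.03 CPM with decitabine and 144 ± 42.0 CPM with DMSO, log2 change -1.72 ± 0.16, adjusted p = 8.22e-08), and MCM7, part of the replicative helicase (253 ± 33.5 CPM and 632 ± 103 CPM, -1.32 ± 0.14, adjusted p = 1.7e-07). Of 20 mitotic genes 13 rose and none fell, with a median of 0.75, among them CDC20, which switches on the ubiquitin ligase of anaphase (187 ± 24.2 CPM and 60 ± 17.1 CPM, 1.64 ± 0.17, adjusted p = 1.72e-07). The part of either list in the rise of the histone members was not tested. In the other lines none of the 25 S-phase genes rose and 0 to 4 fell. Of the mitotic genes 6 fell in Loucy, 1 in PEER and none elsewhere, while 1 rose in PER-117. In those lines 0.961% (PEER) to 4.13% (Loucy) of all genes were lower, and 8.67% were higher in PER-117.

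Of 23 genes of histone mRNA processing and transcription 7 fell and none rose in TALL-1 (6.12% and 6.74% of all genes), with a median log2 change of -0.17. Among them was NPAT, the activator of histone gene transcription (38.7 ± 3.67 CPM with decitabine and 64.1 ± 4.15 CPM with DMSO, -0.72 ± 0.14, adjusted p = 0.000742), with CCNE1, CCNE2 and CDK2, whose kinase acts on it. SLBP, which binds the stem-loop, stood at 55.5 ± 19.6 CPM and 115 ± 3.18 CPM (-1.04 ± 0.32, adjusted p = 0.0306). In Loucy and PEER 1 of the 23 fell, YY1, against 4.13% and 0.961% of all genes, and none was called in MOLT-16 or PER-117. Of 20 histone chaperones 8 fell in TALL-1, 2 in Loucy, 1 in PER-117 and none in PEER or MOLT-16. The shares of all genes lower, in that order of lines, were 6.12%, 4.13%, 3.16%, 0.961% and 1.01%. The 8 included NASP, a chaperone of H3 and H4 (337 ± 34.6 CPM and 689 ± 49.3 CPM, -1.03 ± 0.16, adjusted p = 3.93e-05), CHAF1A and CHAF1B, subunits that deliver H3 and H4 to new DNA, and ASF1B. Of 11 replication-independent histones tested 1 rose in TALL-1, CENPA of the centromere (65.9 ± 19.8 CPM and 25.7 ± 13.5 CPM, 1.34 ± 0.30, adjusted p = 0.00344), and 3 fell. In the other lines 1 fell in PEER, 2 in MOLT-16, 2 in Loucy and 1 in PER-117, where 1 rose. Of all genes 0.961%, 1.01%, 4.13% and 3.16% were lower in these lines, and 8.67% were higher in PER-117.

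The linker histones, which bind DNA between nucleosomes and lie in the same cluster on chromosome 6, did not all move with the core members. In Loucy 3 of 4 tested fell, against 4.13% of all genes. HIST1H1B stood at 2.14 ± 0.858 CPM in Loucy decitabine and 11.2 ± 2.15 CPM in Loucy DMSO (log2 change -2.35 ± 0.32, adjusted p = 4.32e-06), HIST1H1D at 3.13 ± 1.80 CPM and 16.6 ± 2.68 CPM (-2.38 ± 0.33, adjusted p = 7.53e-06), and HIST1H1E had a log2 change of -1.59 ± 0.33 (adjusted p = 0.00112). In TALL-1 1 of 4 rose, HIST1H1C (54.7 ± 8.56 CPM with decitabine and 34.6 ± 3.21 CPM with DMSO, 0.67 ± 0.21, adjusted p = 0.0336). HIST1H1C also rose in PEER (64.8 ± 6.10 CPM and 32.2 ± 3.44 CPM, 1.01 ± 0.21, adjusted p = 0.00371), and no linker histone was called in MOLT-16 or PER-117. The shares of all genes higher were 6.74% in TALL-1 and 3.54% in PEER.

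**Figure D5:**
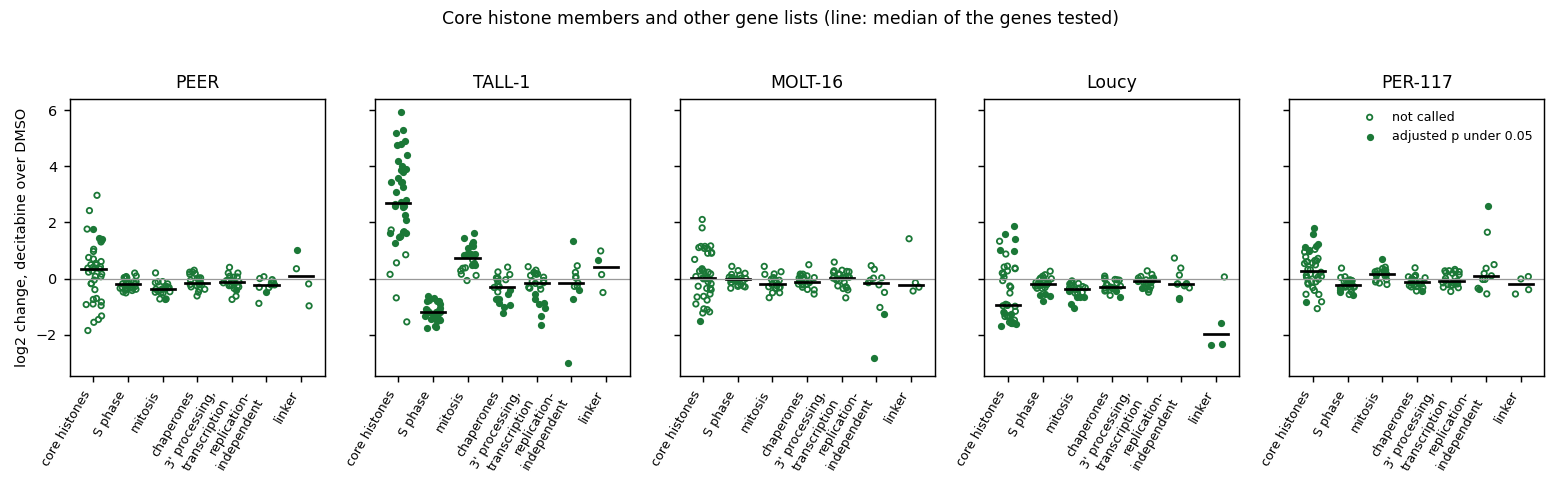
Log2 change with decitabine over DMSO of the 40 core histone members tested and of 6 other gene lists in each line, with filled points at an adjusted p under 0.05 and medians as lines. In TALL-1 the core histones (median 2.70) and mitotic genes (0.75) lie above 0 and the S-phase genes (-1.21) below it.

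Reads on the strand opposite to a member made up 84.3% of the reads at HIST3H2BB, 54.7% at HIST1H4I and 22.4% at HIST1H2BE, so the values of these 3 genes are less certain. With unstranded reads the log2 change in TALL-1 was 2.55 for HIST1H4I, against 3.90 on the gene's strand, 2.92 for HIST2H2AC, against 1.5, and 4.22 for HIST1H2BK, against 3.44. Opposite-strand reads were only 0.871% of the reads at HIST2H2AC and 0% at HIST1H2BK. The cause of the shift in these 2 genes was not tested, and their values too depend on how reads were counted. The fall of HIST2H2AC in PER-117 was not called with unstranded reads (adjusted p = 0.277).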

How the data were processed

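The authors deposited whole-number read counts per gene, 1 table per library, with a column for unstranded reads and 1 for each strand. The submitters' processing notes name STAR 2.4.2a as aligner, GRCh38 (hg38) as build and DESeq2. Which annotation release the counts used is unknown here. Gene-strand reads, used throughout, outnumbered opposite-strand reads 12.8 to 15.2 times. Libraries held 2.2 to 15.4 M gene reads, and 0.0312% to 0.254% of them fell on the members. The labels name no molecular identifiers, so 95% exact counting intervals and the floor of 3 reads cover counting error only.

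A single edgeR 4.0.16 model (R 4.3.3) held all 30 libraries and 10 group means, with TMM factors, filterByExpr (minimum count 10) and quasi-likelihood F tests (common dispersion 0.0280). P-values of the 15081 genes kept were adjusted by Benjamini-Hochberg per comparison and called under 0.05. SEs were derived from the log2 change and F. A further fit took the lines as replicates on summed counts (16656 genes). Alternatives included DESeq2 1.42.0, and the model was tested on simulated data.

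Members and gene lists were chosen with earlier results of these data known. Genes named are the 6 largest rises and falls called per line at 2 CPM or more, the 3 highest of each class, the 5 with the smallest adjusted p for the difference among lines, those called alike in 3 or more lines, HIST1H2BA, HIST4H4 and 4 divergent pairs. The remaining members are named to account for them, and SLBP and the genes in sentences on left-out libraries and on strand were chosen after their values were seen. PEER DMSO replicate numbers follow the titles. Same-numbered libraries deviated together most evenly in PER-117 (r of 0.109, 0.163 and 0.253 across genes), a pairing that comes from the data, not the labels. In MOLT-16 r was 0.043, 0.126 and 0.028, and in PEER it ran from -0.218 to 0.257. No 2 libraries of a group were duplicates (chi-square per degree of freedom at least 2.13).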

Additional observations from a re-analysis of the deposited data

Results flagged for a closer look

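The response to decitabine differed among the 5 lines, by the edgeR test of the difference itself, for 32 of the 40 members tested, against 13.6% of all genes, with 29 to 37 when any 1 library was left out. Of the 30 members that passed the filter without the TALL-1 decitabine libraries 23 were called. The 5 smallest adjusted p were 2.43e-06 for HIST1H3C, 5.82e-05 for HIST1H2AC, 6.16e-05 for HIST1H2AH, 6.39e-05 for HIST1H2BG and 6.49e-05 for HIST1H4E. HIST1H2AH did not pass the filter without the TALL-1 decitabine libraries, so its passing was tied to a high value there. In TALL-1 all 5 rose. In Loucy HIST1H2AC rose and HIST1H3C fell, while the other 3 had log2 changes of -1.36, 0.44 and -0.08 that were not called.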

How the results depend on the processing

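Across 34 results 657 of 721 alternative values stayed within the limits set, and none of the 58 calls reversed. TALL-1 had 1 member lower, in place of 0, under the replicate block, without the 3 libraries with transcripts of another line, with the line alone and in DESeq2. MOLT-16 had 1 higher, in place of 0, without the filter on low counts and under the block. MOLT-16 had 3 lower, in place of 1, without the filter and without the 3 libraries, 2 in DESeq2, and 0 with library totals, under the block and with the line alone. PER-117 had 0 lower, in place of 1, with library totals and with unstranded reads. With the lines as replicates 1 member was higher, in place of 0, with library totals and without the 3 libraries, and 10 higher and 1 lower without the filter. The log2 ratio of the H2A sum was 0.21 with unstranded reads and -1.16 without HIST1H2AC in Loucy, where it was -0.33, and 0.39 and 0.12 in PER-117, where it was 0.22. Without the highest member the H3 ratio in TALL-1 was 2.91, and the H4 ratio was 3.56 in TALL-1, 0.034 in MOLT-16, -0.26 in Loucy and 0.67 in PER-117. The sign thus changed for H2A in Loucy and for H4 in MOLT-16 and PER-117, and it also changed for H4 in PEER without HIST1H4C (0.56, in place of -0.33) and for H2A in MOLT-16 with unstranded reads (0.31, in place of -0.08). Leaving out 1 library gave -0.36 to 0.11 for H2A in MOLT-16 and -0.22 to 0.05 for H4 in PER-117. The cause was not tested. Leaving out each library gave 2 to 6 higher and 0 to 1 lower in PEER, 30 to 37 and 0 to 1 in TALL-1, 0 to 1 and 0 to 3 in MOLT-16, 3 to 6 and 5 to 10 in Loucy, 3 to 9 and 0 to 1 in PER-117, and 0 to 2 and 0 with the lines as replicates. The lowest counts came without decitabine replicate 1, DMSO replicate 2 or DMSO replicate 3 in PEER (2 higher), decitabine replicate 1 in Loucy (3 higher, 5 lower) and DMSO replicate 3 in PER-117 (3 higher). Of 58 calls the block lost 4, the line alone 3, library totals 3, and DESeq2, DESeq2 size factors, no filter and unstranded reads 1 each. Replicate numbers paired the libraries less evenly outside PER-117. Over the 15 same-numbered pairs of all lines r ran from -0.22 to 0.26, and 8 of 15 correlated best with their own number. Members near 1 CPM rest on few reads, which limits what was detectable.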
